A study of Rattus norvegicus with 24 samples.

Results

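Odorant receptor families 1, 2 and 7 of the rat are 3 families of class II odorant receptors, the larger and tetrapod-expanded class of olfactory receptor genes. Members were all genes measured by a probe set with exactly 1 gene symbol whose current symbol is Or1, Or2 or Or7 followed by a letter. No intensity filter was used, and where several probe sets measured a gene the one with the highest mean over the nose arrays was taken. This gave 248 genes, 88 of family 1, 106 of family 2 and 54 of family 7, among 14506 named genes and 1052 named odorant receptor genes on the array. The 248 genes fall into 56 subfamilies, and 245 of them had 1 probe set. The rat RefSeq annotation (assembly GRCr8) lists 288 protein-coding genes of these families, and the 40 that are not members include 20 that were measured only in probe sets shared with another gene.

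The arrays came from male Fischer rats, approximately 8 weeks of age at the start, that breathed 2 ppm formaldehyde made from [13CD2]-paraformaldehyde through the nose for 6 hours a day over 7 or 28 days. Control rats sat in the same kind of nose-only tubes with room air for the same time, and all rats had been conditioned to the tubes. Nasal epithelium was taken from the maxilloturbinate, and white blood cells were isolated from whole blood in cell preparation tubes. Each of the 8 groups of tissue, day and exposure had 3 Affymetrix arrays, 24 in all, and so few arrays limit how precise a group mean can be. Nothing in the labels says that the replicates are separate animals, so p-values measure only the spread between these samples, which may be technical.

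Odorant receptors are G protein-coupled receptors on the cilia of olfactory sensory neurons, where an odorant acts through the olfactory G protein, adenylyl cyclase and a cyclic nucleotide-gated channel. Each mature neuron transcribes mainly one allele of one receptor gene, so a given receptor is expressed by a small and scattered population of neurons, and class II genes are used in overlapping zones of the olfactory mucosa. The genes are intronless in their coding part, lie in clusters and arose by repeated local duplication, so that near-identical neighbours are common. White blood cells contain no olfactory neurons and serve here as the tissue without that source.

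The sequences below compare the start of the coding sequence in 5 pairs of related genes that hold leading members of the results. The first 50 coding bases are given 5′ to 3′ on the gene's own strand, from RefSeq (GRCr8), with bases of the second gene that differ from the first in capitals.
Or7a38c, chr7:11316171-11316220 (minus strand): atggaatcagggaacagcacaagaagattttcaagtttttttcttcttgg
Or7a38d, chr7:11251347-11251396 (minus strand): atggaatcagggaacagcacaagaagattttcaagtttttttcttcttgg
Or2l13, chr11:94905454-94905503 (minus strand): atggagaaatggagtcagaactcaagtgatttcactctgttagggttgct
Or2l13c, chr11:94855639-94855688 (plus strand): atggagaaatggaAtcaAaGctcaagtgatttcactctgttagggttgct
Or2t48b, chr10:43260042-43260091 (minus strand): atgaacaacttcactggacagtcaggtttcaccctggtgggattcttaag
Or2t48, chr10:43288087-43288136 (minus strand): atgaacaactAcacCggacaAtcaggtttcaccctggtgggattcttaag
Or1o2, chr20:1352630-1352679 (plus strand): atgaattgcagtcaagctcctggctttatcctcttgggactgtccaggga
Or1o1, chr20:1047308-1047357 (minus strand): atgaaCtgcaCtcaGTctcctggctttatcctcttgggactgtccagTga
Or2ag19, chr1:170044923-170044972 (plus strand): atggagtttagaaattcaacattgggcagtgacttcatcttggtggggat
Or2ag19b, chr1:169871270-169871319 (minus strand): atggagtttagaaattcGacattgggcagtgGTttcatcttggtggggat

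Or7a38c and Or7a38d were equal at 50 of 50 bases, and Or1o2 and Or1o1 at 45. The other 3 pairs were equal at 47. RefSeq start windows were found for 207 of the 248 members, and 85 of these had at least 1 other member equal at 47 or more of the 50 bases. Near-identical genes can hybridise to each other's probes, so the value of a single gene in such a pair is uncertain. No members had the same values on every array as another probe set.

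Most members were dim. In control nose at 7 days 172 of the 248 lay below percentile 25 of all probe sets (6.87 on the log2 intensity scale) and 4 at or above the median (8.27). The median member on each array stood at 6.28, 6.38 and 6.38 in the 3 control arrays of nose at 7 days and at 7.92, 7.32 and 7.31 in the 3 exposed arrays. At 28 days it was 6.08, 6.42 and 6.62 in control nose and 6.35, 6.69 and 6.50 in exposed nose. The nose groups thus did not overlap at 7 days and did at 28 days. Blood stood at 5.47 ± 0.085 in controls and 5.47 ± 0.018 in exposed rats at 7 days (SD, n = 3). The deposited values of the 7 day and 28 day arrays lie on different scales, and levels are compared only within a day.

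**Figure D1:**
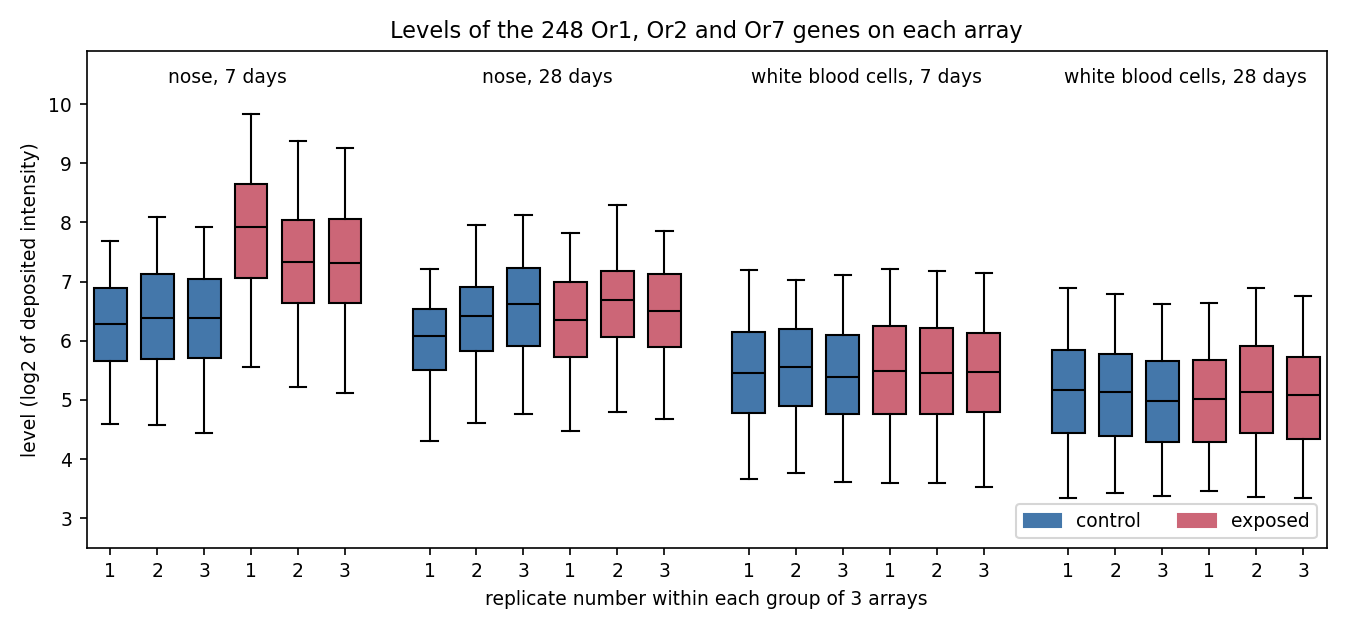
Log2 intensity of the 248 genes on each of the 24 arrays, as boxes from the lower to the upper quartile with the median and whiskers from percentile 5 to 95. The 3 exposed nose arrays at 7 days, with medians of 7.31 to 7.92, lie above the 3 control nose arrays at 6.28 to 6.38, while exposed and control arrays overlap in nose at 28 days.

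Control replicate 1 of the nose stood apart at both days in genes of the olfactory epithelium. The mean log2 intensity of 15 genes of mature olfactory neurons was 9.10 on that array at 7 days against 10.40 and 10.19 on the other control arrays. At 28 days it was 7.63 on control replicate 1 against 9.84 and 9.70. The counts and medians of the members and of the olfactory lists are therefore also given without it. In each case only the control replicate 1 of the day compared is left out. That of the other day stays in the fit, where it adds to the spread shared by the nose arrays and so to the standard errors. The summed intensity of the 15 genes was 13893 to 31829 in control nose and 1691 to 1731 in control blood at 7 days, on arrays whose scales differ.

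After 7 days of exposure, transcripts of these receptor families were higher in the nasal epithelium almost throughout. Of the 248 genes 163 rose past an adjusted p of 0.05 (limma with Benjamini-Hochberg adjustment over all 29214 probe sets) and 0 fell, while 244 had a difference above 0. Over all probe sets 7.22% rose and 5.62% fell, and 39.8% had a difference above 0. The median difference of the members was 1.05 on the log2 scale, a 2.06-fold rise, against −0.047 for all probe sets. At least a doubling was seen in 129 genes, and the differences ran from −0.14 to 4.15. In 214 genes all 3 exposed arrays were above all 3 control arrays, and 18.3% of all probe sets had that order. Fewer olfactory neurons in the control samples, through dissection or in the tissue itself, and less receptor RNA per neuron cannot be told apart in such bulk samples. None of these was tested. Without control replicate 1 the median was 0.93, with 121 genes past the threshold and 241 above 0. Without exposed replicate 1, whose member median of 7.92 was the highest of the exposed arrays, the median difference was 0.85, with 113 genes past the threshold. Both were the lowest values with a single array left out. The share of all probe sets past the threshold was not counted in these fits.

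In family 1, 53 of 88 genes rose with a median difference of 0.94, in family 2, 73 of 106 with 1.07, and in family 7, 37 of 54 with 1.17. Without control replicate 1 the counts were 37, 56 and 28 and the medians 0.83, 1.02 and 1.16. No test of a difference between the families was made.

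Or7a38c, a family 7 receptor gene (gene ID 287002, probe set 10900869), had the largest difference at 7 days. Its log2 intensity was 8.97, 4.17 and 6.52 in the control arrays and 11.25, 10.20 and 10.68 in the exposed arrays. The exposed arrays were all above the controls, but the controls differed from each other by 4.80, more than any other member's. The difference was 4.15 ± 0.95 (SE, adjusted p = 0.0189), and it ran from 2.96 to 5.36 with 1 array left out, with the call lost in 2 of the 6 cases. Its partner Or7a38d, equal to it at the coding start shown above, measured 5.08, 7.60 and 7.40 in controls and 10.63, 9.88 and 9.42 in exposed nose. Here control replicate 1 was the low array, whereas in Or7a38c it was the high one. The difference of Or7a38d was 3.28 ± 0.82 (adjusted p = 0.0262). Its call was lost in 4 of 6 cases with an array left out and with the replicate number as a block (3.28, adjusted p = 0.0544).

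Or2ag19 (gene ID 293361), a family 2 receptor, measured 6.76, 5.88 and 6.93 in control nose and 10.62, 9.63 and 9.59 in exposed nose at 7 days. All exposed arrays were at least 2 log2 units above all controls. The difference was 3.43 ± 0.52 (SE, adjusted p = 0.00317), and the near copy Or2ag19b rose by 1.98 ± 0.36 (adjusted p = 0.0075). Or7d9 (gene ID 405155) measured 6.64, 5.74 and 6.69 in controls and 10.46, 9.44 and 9.25 after exposure. Its groups were nearly as far apart, and the difference was 3.37 ± 0.40 (adjusted p = 0.00108).

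Or2l13 (gene ID 287969) was the member with the highest mean in exposed nose at 7 days. It measured 7.84, 7.63 and 7.64 in control nose and 11.49, 10.49 and 11.03 in exposed nose. The controls lay close together and far below every exposed array, with a difference of 3.30 ± 0.41 (SE, adjusted p = 0.00124). In control blood it measured 8.07, 8.00 and 8.34, so that unexposed nose was not above blood at this probe set (−0.43, adjusted p = 0.219). Its near copy Or2l13c rose by 2.54 ± 0.35 (adjusted p = 0.00177).

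Or2t48b (gene ID 405368) had the same shape, with 7.46, 7.25 and 7.18 in controls and 10.61, 9.99 and 9.75 after exposure, and no overlap. It rose by 2.82 ± 0.40 (SE, adjusted p = 0.00225), and its near copy Or2t48 by 1.82 ± 0.34 (adjusted p = 0.00825). The leading family 1 genes were Or1j15, Or1j14 and Or1o2. Or1j15 (gene ID 296666) measured 8.86, 6.47 and 7.45 in controls and 11.11, 9.96 and 10.52 in exposed nose, a wide control group that still lay below every exposed array. It rose by 2.94 ± 0.59 (adjusted p = 0.011), and the call was lost in 1 of 6 cases with an array left out. Or1j14 (gene ID 405388) measured 5.70, 4.83 and 5.63 against 8.91, 7.33 and 8.08, again without overlap, and rose by 2.72 ± 0.33 (adjusted p = 0.0012). Or1o2 (gene ID 294196) was dimmer, at 4.63, 3.72 and 4.47 in controls and 7.58, 6.43 and 6.45 after exposure, and rose by 2.55 ± 0.40 (adjusted p = 0.00383). Its partner Or1o1, with the changed bases shown above, rose by 2.49 ± 0.36 (adjusted p = 0.00247).

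**Figure D2:**
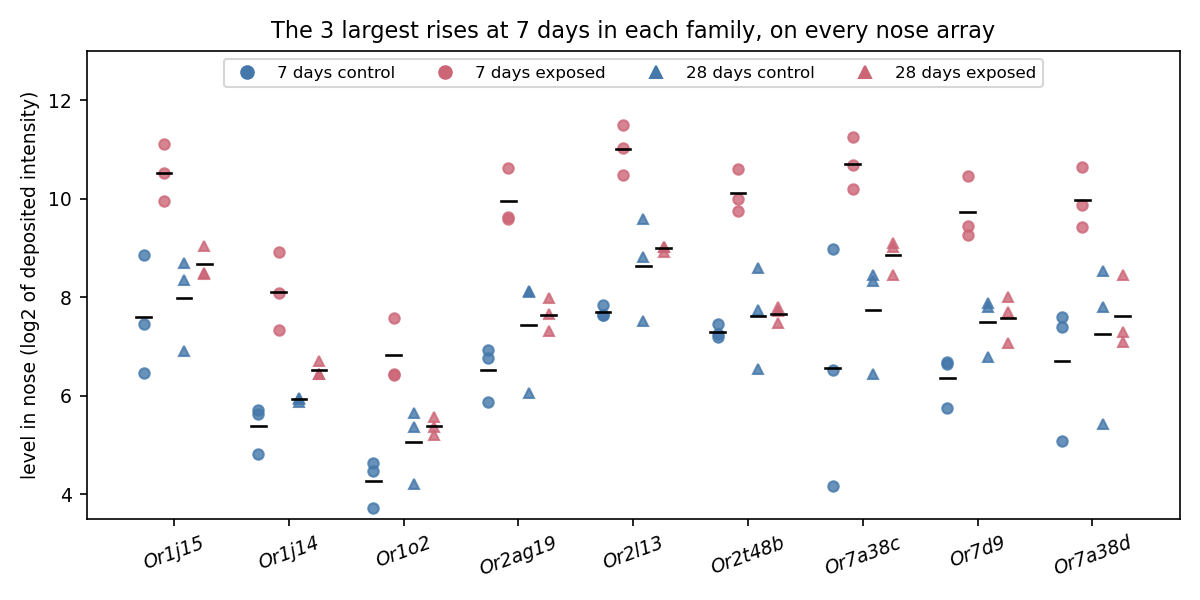
Log2 intensity of 9 leading genes on every nose array at 7 and 28 days, control and exposed, with a bar at each group mean. At 7 days the 3 exposed arrays of each gene lie above its 3 controls, and at 28 days the groups overlap for most of these genes.

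Subfamilies differed in how far they rose. All 12 measured Or2t genes and all 7 Or1o genes rose, with median differences of 1.85 and 1.59. In Or2ag 10 of 11 rose (median 2.23), in Or7a 7 of 9 (2.08), in Or1j 15 of 18 (1.33), in Or2y 9 of 11 (0.91) and in Or1e 13 of 19 (1.15). The largest subfamily, Or7g, had 17 of 25 past the threshold and a median of 1.04. At the other end Or1f had 4 of 17 (0.40), Or2h 2 of 5 (0.45), Or2n 1 of 5 (0.47) and Or2a 2 of 8 (0.87). Genes of a subfamily share sequence and may share probe signal, so they are not independent, and these subfamilies were not tested against each other.

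**Figure D3:**
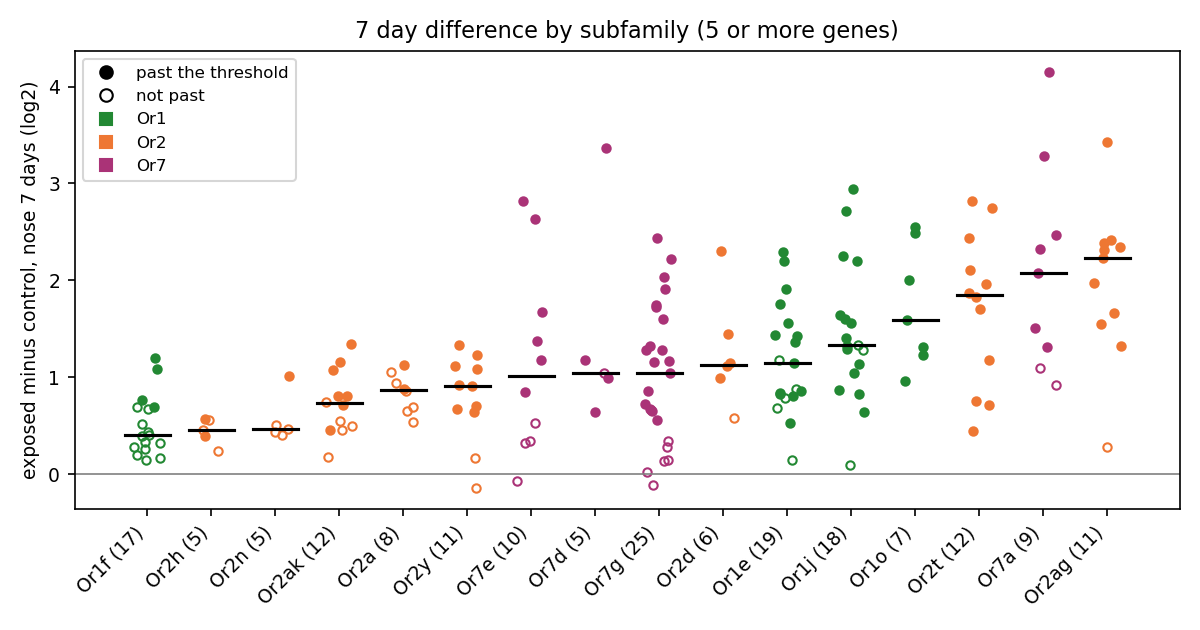
Difference of exposed minus control nose at 7 days (log2) for each gene of the 16 subfamilies with at least 5 members, filled where the adjusted p is under 0.05, with a bar at the subfamily median. Medians run from 0.40 in Or1f to 2.23 in Or2ag, and all 12 Or2t genes are past the threshold.

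The same range appeared among the 23 gene neighbourhoods in which the members lie, a neighbourhood being a run of odorant receptor genes on GRCr8 with at most 10 other protein-coding genes between neighbours. The highest median among those with at least 5 members, 2.11, was that of the run from Or2aj4 to Or2m12, in which all 5 genes rose. In the run from Or2ag13 to Or2d36, 15 of 17 genes rose (median 1.66), in that from Or7a44 to Or1i2, 8 of 11 (1.51), and in that from Or1j13b to Or1af1, 23 of 28 (1.31). The largest neighbourhood, Or7g23b to Or7h7b, had 28 of 43 genes past the threshold (1.04). In the run from Or2c1 to Or1f28, 5 of 18 rose (0.42), and from Or1ad6 to Or1x2d, 2 of 8 (0.59). Subfamilies within 1 neighbourhood could differ. The run from Or2n1e to Or2h2, with 14 of 22 past the threshold, holds the Or1o genes (7 of 7, median 1.59) beside Or2n (1 of 5, 0.47) and Or2h (2 of 5, 0.45). These differences were not tested.

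Members that rose were found at each level of intensity in control nose. The levels are set by the same control arrays that enter the difference, which by itself favours rises among dim members. Shares of all probe sets at these levels were not computed, so the counts are only a description. Of the 172 members below percentile 25 in control nose 119 rose, and of the 72 between percentile 25 and the median 43 did. The 4 members at or above the median included 1 that rose. Or2ak5 was the brightest in control nose, at 8.34, 9.02 and 8.89 against 9.58, 9.04 and 9.28 after exposure. The lowest exposed array barely exceeded the highest control, and the difference of 0.55 did not pass (adjusted p = 0.0954). In control blood this probe set measured 8.87 to 9.05, no lower than in nose. Or2z2 and Or2w6 came next in control nose, and their differences of 1.03 (adjusted p = 0.117) and 1.14 (adjusted p = 0.0898) did not pass. Or7e171, the dimmest member, measured 2.84, 2.65 and 2.68 in controls and 2.56, 2.60 and 2.78 in exposed nose, which overlap. Or1f20e, nearly as dim, measured 3.13, 2.92 and 2.80 against 4.55, 4.08 and 3.46 and rose by 1.08 (adjusted p = 0.0132), a call that was lost in 1 of 6 cases with an array left out.

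Members near the threshold had moderate differences. Or2t44b, the family 2 gene just past it, differed by 0.44 (adjusted p = 0.048), and Or1aa2 by 0.78 (adjusted p = 0.0478). Their calls were lost in 6 of 6 and 5 of 6 cases with an array left out. Or1e1 at 0.88 (adjusted p = 0.0514) and Or7e171b at 0.53 (adjusted p = 0.0547) were just short.

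In 7 members the 3 control arrays at 7 days spanned more than 2 log2 units, which was so for 0.442% of all probe sets. In 5 of these (Or1j19, Or1m1, Or2a14, Or7a35 and Or7a38d) control replicate 1 was the lowest array, as it was for the genes of mature olfactory neurons. Or1j19 measured 6.18, 9.30 and 8.65 in controls and 9.44, 9.60 and 9.10 after exposure, so 1 control array exceeded an exposed one. Its difference of 1.34 did not pass (adjusted p = 0.316). Or1m1 measured 5.72, 8.70 and 7.93 against 9.40, 8.99 and 8.89, with no overlap, and its difference of 1.64 did not pass either (adjusted p = 0.144). In Or2l13, Or2t48b and Or2ag19 above, all 3 control arrays lay below all 3 exposed arrays. These genes were picked for their large rises, a choice that itself favours such an order.

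At 28 days no member passed the threshold, where 0.00342% of all probe sets did, which is 1 probe set (limma with Benjamini-Hochberg adjustment). At an unadjusted p under 0.05 there were 6 members, or 2.42%, against 12.6% of all probe sets. The median difference was 0.14 on the log2 scale, and 204 of 248 members had a difference above 0 against 48.9% of all probe sets. Without control replicate 1 the median was 0.025 with 141 members above 0, and without control replicate 3 it was 0.28. Between these, it was 0.22 without exposed replicate 1 and 0.085 without exposed replicate 2. In 24 members all exposed arrays were above all controls, or 9.68%, against 6.16% of all probe sets. The family medians were 0.19, 0.13 and 0.082 for families 1, 2 and 7.

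The largest difference at 28 days was again that of Or7a38c, at 6.43, 8.32 and 8.44 in controls and 9.01, 9.10 and 8.45 after exposure. The exposed arrays were above the controls by as little as 0.01, and the difference of 1.12 did not pass (adjusted p = 0.669). Or1m1 measured 6.01, 7.83 and 7.64 against 8.00, 8.64 and 7.74 and differed by 0.97 (adjusted p = 0.586). In both genes control replicate 1 was far below the other controls. Or1ak2 had closer controls, at 6.16, 6.77 and 6.71 against 7.16, 7.99 and 6.98, with no overlap and a difference of 0.83 (adjusted p = 0.388). Or2b4 went the other way, at 7.32, 7.72 and 7.58 in controls and 6.67, 7.28 and 7.16 after exposure, and its difference of −0.50 did not pass (adjusted p = 0.461). It was the 1 member whose exposed arrays were all below the controls, an order that 7.95% of all probe sets had. The next lowest differences, of Or1o1 (−0.26) and Or2aj4 (−0.26), did not pass the threshold.

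The exposure difference was smaller at 28 than at 7 days in 12 members by the test of that difference (4.84%), and larger in 0, against 0.466% and 0.0308% of all probe sets. The median of the members' change in difference was −0.81. This test sets differences from differently scaled arrays against each other. In control nose percentile 25 and the median of all probe sets were 6.87 and 8.27 at 7 days and 6.31 and 7.40 at 28 days. The part of the scaling in the change was not tested and cannot be told apart from that of time. The 12 were Or1e31, Or1o1, Or2ag16, Or2ag20, Or2l5, Or2t47d, Or2w1, Or7d9, Or7e176, Or7g21, Or7g32 and Or7g89, with adjusted p-values of 0.0286 to 0.0484. Or7d9, whose 7 day values are given above, measured 6.79, 7.88 and 7.80 in control and 7.07, 8.00 and 7.69 in exposed nose at 28 days. The groups overlapped, and the 28 day difference was lower than the 7 day one by 3.27 ± 0.57 (SE, adjusted p = 0.0388). This call was lost in 10 of 12 cases with an array left out. The 7 day rise of Or7e176, from 5.71, 5.05 and 5.35 to 8.63, 7.68 and 7.70, stood against 5.90, 6.43 and 6.62 in controls and 5.78, 6.73 and 6.37 in exposed nose at 28 days. Here too the groups overlapped only at 28 days, and the change was −2.66 ± 0.44 (adjusted p = 0.0341). Or2w1 measured 6.28, 6.02 and 6.14 against 7.54, 7.64 and 8.06 at 7 days and 5.91, 5.84 and 6.47 against 5.65, 5.90 and 6.16 at 28 days, a change of −1.77 ± 0.27 (adjusted p = 0.0296).

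The change was largest in Or7d9, Or2ag19 (−3.21, adjusted p = 0.101) and Or7a38c (−3.03, adjusted p = 0.392), and only the first of these passed. In the other direction Or2y1d (0.22), Or1ak2 (0.20) and Or1i2 (0.19) had the highest values, none past the threshold.

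The count of 12 depended strongly on single arrays. It was 0 without any 1 of the 3 control arrays at 7 days, without control replicate 3 at 28 days, and without exposed replicate 1 or 2 at 28 days. It was 2 without exposed replicate 3 at 7 days, 3 without control replicate 2 or exposed replicate 3 at 28 days, 24 without exposed replicate 2 at 7 days, and 91 without control replicate 1 at 28 days. With the replicate number as a block it was 26. The count without exposed replicate 1 at 7 days is not given here. The share of all probe sets called was not counted in these fits, so the counts show nothing particular to the members. Across the 248 genes the 7 day and 28 day differences, which come from separate arrays, had a Pearson's r of 0.314 and a Spearman's rho of 0.302, given as a description.

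**Figure D4:**
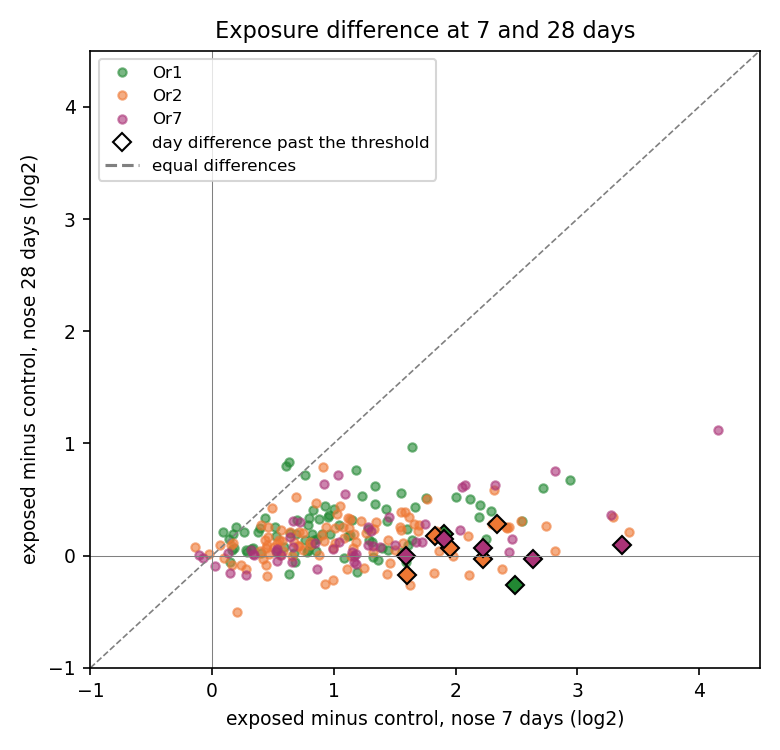
Exposed minus control difference in nose (log2) at 7 days on the x axis and at 28 days on the y axis for the 248 genes, with the dashed line of equal differences. Diamonds mark the 12 genes whose difference between days passed the threshold, and nearly all genes lie below the line, with 28 day differences between −0.50 and 1.12.

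In white blood cells no member passed the threshold with exposure at either day (limma with Benjamini-Hochberg adjustment). Over all probe sets 0.188% were called at 7 days and 3.18% at 28 days. In control blood at 7 days 189 members lay below percentile 25 of all probe sets, so a missing call does not show that a member was unchanged. At an unadjusted p under 0.05 there were 10 members at 7 days and 13 at 28 days, or 4.03% and 5.24%, against 12.8% and 14.7% of all probe sets. The median differences were 0.018 and −0.022. Or7g34 had the largest difference at 7 days, with 3.88, 4.60 and 4.03 in control and 3.66, 3.43 and 3.80 in exposed blood. The groups did not overlap, and the difference of −0.54 did not pass (adjusted p = 0.171). Or1e20b measured 4.21, 4.33 and 3.91 against 4.52, 4.66 and 4.47, a difference of 0.40 (adjusted p = 0.208). Next came Or1o2c at 0.34 and Or1n1b at −0.35. At 28 days the outermost members in blood were Or2t48 at 0.34, Or1o2 at 0.32, Or1o1 at −0.37 and Or1f21 at −0.32, none past the threshold.

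The 7 day difference was larger in nose than in blood in 146 members (58.9%) by the test of that difference, and smaller in 0, while over all probe sets the shares were 6.15% and 4.76%. In controls at 7 days 189 members (76.2%) were higher in nose than in blood, as were 59.5% of all probe sets. Or7g34 was lower, as were 13.7%. The arrays of the tissues lie on different scales. With each array centred on its median 56 members were higher and 65 lower, so the direction between tissues depends on the scaling. Or1j19 had the largest such difference, 3.32 above blood, followed by Or7a38d at 3.03 and Or7a38c at 2.59, and with centring these were 2.51, 2.22 and 1.78.

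Of 15 measured genes of mature neurons and odor transduction, of 18 listed, 5 rose at 7 days and 0 fell, against 7.22% and 5.62% of all probe sets, and the median difference was 1.48. Those that rose included Cnga4, a subunit of the olfactory cyclic nucleotide-gated channel, by 2.15 (adjusted p = 0.0167), and Slc24a4, an ion exchanger of the olfactory cilia, by 1.88 (adjusted p = 0.00778). Omp, the olfactory marker protein, differed by 2.00 (adjusted p = 0.103), the olfactory G protein subunit Gnal by 1.48 (adjusted p = 0.223), the channel subunit Cnga2 by 2.51 (adjusted p = 0.0911) and the adenylyl cyclase Adcy3 by 1.91 (adjusted p = 0.0514), and these did not pass. The lowest differences of the list were 0.046 for Nrsn1 and −0.14 for Ckmt1. The summed intensity of the 15 genes was 13893 to 31829 in control and 56332 to 68164 in exposed nose, with no overlap. Without control replicate 1 the list's median was 1.11, and 1 gene, Slc24a4, passed. The lists were chosen with results of these data known and are not independent evidence.

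Of 17 genes of receptor choice and transport 6 rose and 0 fell, with a median of 1.33. Rtp1 and Rtp2, which carry odorant receptors to the cell surface, rose by 1.81 (adjusted p = 0.030) and 1.10 (adjusted p = 0.00312). Ebf1, Ebf3 and Atf5, transcription factors of olfactory neurons, rose by 1.34, 1.85 and 1.33, and Lhx2, a factor that receptor choice needs, differed by 1.81 without passing (adjusted p = 0.104). Of 9 measured genes of immature neurons and progenitors, of 10 listed, 3 rose (Gap43, Dpysl5 and Stmn4) and 0 fell, with a median of 1.13. Without control replicate 1 the medians of these lists were 1.04 and 0.82, and 1 gene of each passed, Rtp2 and Stmn4. At 28 days the medians of the mature neuron, receptor choice and immature neuron lists were 0.96, 0.61 and 0.50, none of their genes passed, and without control replicate 1 the medians were 0.32, 0.22 and 0.22.

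Sustentacular cells and Bowman's glands are the supporting and secretory cells of the olfactory mucosa. Of 7 measured genes of these, of 8 listed, 0 rose at 7 days and 1, Aqp5, fell (−0.37, adjusted p = 0.0148). The list median was 0.75, with Ugt2a1 at 1.20 (adjusted p = 0.396) and Cyp1a2 at 1.12 (adjusted p = 0.384), and without control replicate 1 it was 0.37 and Aqp5 did not pass. The 7 zone markers had a median of 0.21. Among them Ncam2, an adhesion molecule of ventral and lateral olfactory zones, rose by 2.31 (adjusted p = 0.00129). Nqo1, a marker of the dorsal zone, fell (−0.79, adjusted p = 0.0275), while Acsm4, also dorsal, differed by 0.98 (adjusted p = 0.494). Robo2, Nrp2, Nrp1 and Sema3f, axon guidance receptors and a ligand, differed by 1.07, 0.21, 0.019 and −0.23, none past the threshold. Without control replicate 1 Ncam2 passed and Nqo1 did not. Of 6 measured genes listed for the respiratory epithelium, of 10 listed, 0 passed (median −0.19). Their summed intensity was 9892 to 10186 in control and 7852 to 9290 in exposed nose. They were Foxj1, Scgb1a1, Krt8, Tp63, Cdh1 and Epcam, and how specific they are to that epithelium was not tested. Of 8 measured white blood cell genes, of 10 listed, 4 fell (Ptprc, Cd3e, Lyz2 and Coro1a). The summed intensity was 4884 to 5248 in control against 3112 to 3661 in exposed nose, and without control replicate 1 Ptprc and Coro1a passed. The part of these cell types in the receptor values was not tested.

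Other receptor families measured on the same arrays at 7 days gave medians of 1.62 for family 4 (114 of 133 genes rose), 0.97 for families 5 and 8 (118 of 270) and 0.92 for families 6 and 9 to 14 (163 of 276). Class I receptors, which are used mainly by dorsal neurons, had a median of 0.43, with 7 of 121 rising (5.79%) and 1 falling. Over all probe sets 7.22% rose and 5.62% fell, so the class I share that rose was no higher. A difference above 0 was seen in 92.6% of the class I genes and 39.8% of all probe sets. No test between these families was made, and at 28 days none of their genes passed.

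**Figure D5:**
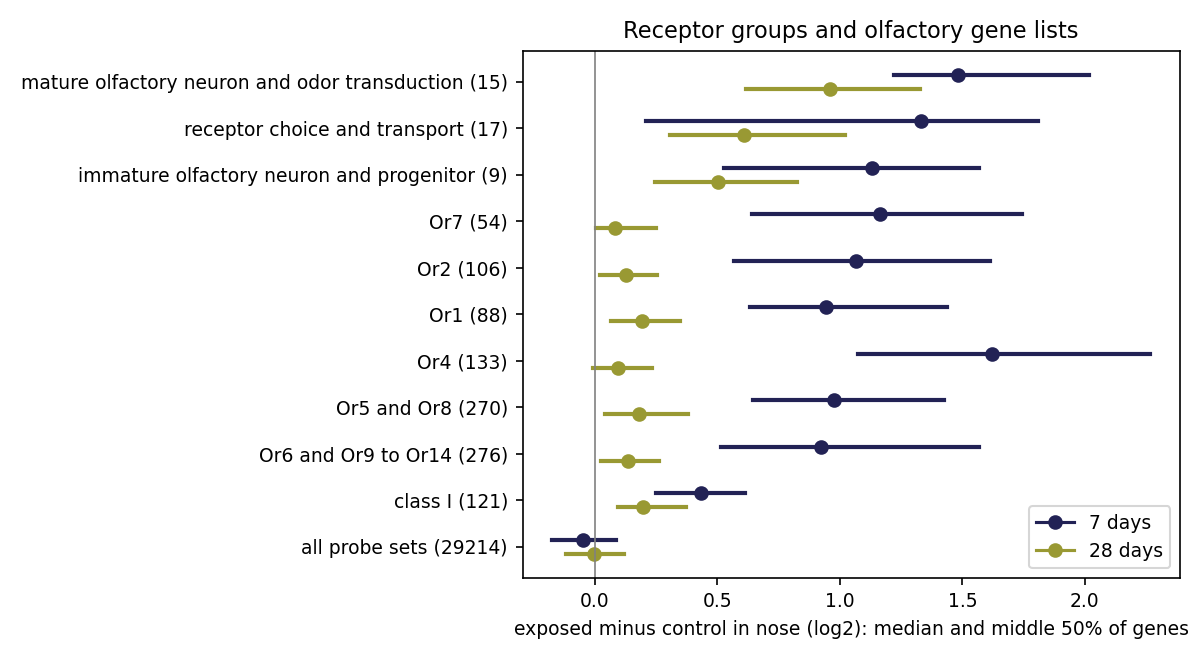
Median difference of exposed minus control nose (log2), with bars over the middle 50% of genes, for the receptor families and the olfactory gene lists at 7 and 28 days. The 3 families described here sit near 1 at 7 days, at 0.94 to 1.17, and between 0.082 and 0.19 at 28 days.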

How the data were processed

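The authors deposited 1 normalised intensity per probe set and array, not on a log scale. The submitters' processing notes name Partek, with version and normalization method not given in the sources used. Groups came from the sample titles, and gene symbols from the platform table (15310 probe sets with 1 symbol, 323 with several, 13581 not listed), updated through RefSeq. The members and lists were chosen with earlier results of these data known.

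The log2 of each deposited value was used with no filter, since a filter keeps dim receptors through the group in which they are high. In R 4.3.3, limma 3.58.1 (lmFit, contrasts.fit, eBayes) took the 12 arrays of each tissue with 4 group means, and all 24 arrays with 8 means for contrasts between tissues. Tests were two-sided and adjusted by Benjamini-Hochberg over 29214 probe sets, at a threshold of 0.05. The fit was tested on simulated data with noise independent between probe sets. Such data hold no shifts shared by many genes on an array, so that test does not cover them. A change called at 1 day was compared between days only by the interaction term.

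Named genes were the 3 largest rises past the threshold in each family at 7 days, the extremes of intensity and of each other comparison, the members nearest the threshold, and those past it in the difference between days. The part of that rule that pairs genes by protein sequence was not run. Genes with wide controls and the partners in the sequence pairs were picked after their values were seen. Same-numbered control and exposed arrays had residual correlations of 0.133 to 0.190 in nose at 28 days, all over 0.1, and of −0.13 to −0.012 in nose at 7 days. The labels state no pairing, so the fit without a block is the one reported. Alternatives were the intensity filter, scaling, an offset, array weights, a looser threshold, the block, and each array left out. Figures were drawn with matplotlib 3.10.9.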

Additional observations from a re-analysis of the deposited data

Results flagged for a closer look

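The exposure difference in nose differed between the days in 12 genes by limma's interaction term, with 28 days minus 7 days of −1.72 for Or1e31, −2.75 for Or1o1, −2.26 for Or2ag16, −2.06 for Or2ag20, −1.65 for Or2l5, −1.89 for Or2t47d, −1.77 for Or2w1, −3.27 for Or7d9, −2.66 for Or7e176, −2.15 for Or7g21, −1.76 for Or7g32 and −1.60 for Or7g89. All 12 rose at 7 days, and their 28 day differences did not pass the threshold. The arrays of each day lie on different scales, and the part of the scaling in these values was not tested. Between the tissues, the 7 day difference was larger in nose than in blood in 146 genes by the same kind of test.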

How the results depend on the processing

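At 7 days in nose the count of genes that rose was 163, and 152 to 198 under the other scalings, the offset and array weights, 148 with the replicate block and 113 to 158 with an array left out. It was 95 of the 131 genes kept by a filter at percentile 25 and 15 of the 25 kept by one at the median, where fewer genes were tested. The filters used the mean over all arrays of a tissue, exposed ones included. They can thus keep dim genes through the group where they are high, so these shares do not bear on how robust the rise is. The 7 day median was 0.64 with an offset of 64 and 0.85 to 1.16 with an array left out. The 28 day median was 0.35 with the median filter and 0.025 to 0.28 with an array left out. The count for the difference between days, 12, was 1 and 0 with the filters, 3 with quantile scaling, 3 with the offset, 0 with array weights, 26 with the replicate block, 35 at an adjusted p under 0.1 and 0 to 91 with an array left out. Blood at 7 days had 1 call with array weights, Or2ag16b. The nose minus blood count, 146, was 34 and 3 with the filters and 119 to 155 with an array left out. The count higher in control nose than in blood, 189, was 41 and 3 with the filters, 56 with median centring and 170 to 183 with an array left out. The cause of these changes other than those of the filters was not tested. Signs turned for Or2aj4 at 28 days (−0.51 to 0.14 with an array left out, the latter without control replicate 3), and in the difference between days for Or1ak2 (up to 0.63; −0.14 without control replicate 2 at 7 days, −0.11 without exposed replicate 2 at 28 days) and Or1i2 (up to 0.53; −0.085 without control replicate 2 at 7 days, −0.037 without control replicate 1 at 28 days). With the replicate block the call of Or7a38d at 7 days was lost. Many members lie at low intensity, where a true difference can be compressed, so a small or missing difference there is not shown to be absent. Such compression was not tested in these data.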

Other observations

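Start windows of 250 bases before and 50 after the RefSeq gene start were found for 207 of the 248 genes. In 206 of these the gene model starts at the start codon, so the window is not shown to be a promoter. The letters TAATTA, which are their own reverse complement and form the core of sites bound by homeodomain factors, were present in 17.4% of the 207 windows, in 19.0% of the windows of other odorant receptor genes and in 5.36% of all windows. Among genes that rose at 7 days the share was 16.3%, and among the others 19.7%. The letters CCCNNGGG, the core of EBF sites, read on both strands, were present in 1.45% of the 207 windows and 12.4% of all windows. The share was 1.22% in other odorant receptor genes, 1.42% in members that rose at 7 days and 1.52% in members not past the threshold. Where the windows of genes other than the members start relative to the start codon was not counted. Of the 85 genes with a near copy at the coding start 54 rose at 7 days, and of the other 122 with a window 87 rose. Near copies may share probes, so these counts do not rest on independent genes.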
